A study of Homo sapiens with 12 samples.

Results

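The DNA sensors cGAS (MB21D1) and IFI16, the adaptor STING (TMEM173) and the other HIN-200 genes AIM2, MNDA and PYHIN1 were followed in U937, a human myelomonocytic leukemia cell line. The 6 genes were found by gene symbol in the table of read counts per transcript, where they hold 47 of 197782 rows, and 6 of 44786 symbols. RNA-seq covered 4 groups of 3 libraries: untreated cells and cells given 200 nM decitabine (DAC, a DNA methyltransferase inhibitor), with 1 µM all-trans retinoic acid (ATRA, a ligand of the retinoic acid receptors) or both (DAC + ATRA). All cultures shared a medium with 20% FCS and 5 ng/ml GM-CSF according to the labels, which give 72 h for the treated and 96 h for the untreated cells. The study's methods differ from these labels, with a single harvest time, another serum share and ATRA added only with the last DAC dose, so the length of the ATRA exposure and the time difference from untreated cells are not settled. The design text calls the libraries of a group technical triplicates, so the p-values measure the spread between these libraries only. U937 is 1 cell line, and in bulk RNA a changed share of cells cannot be told apart from changed RNA per cell.

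DNA outside the nucleus is read by cGAS, which makes the messenger cGAMP. This messenger binds STING, and STING activates the kinase TBK1, the transcription factor IRF3 and thereby interferon genes. The HIN-200 proteins carry a DNA-binding HIN domain. AIM2 is the sensor that starts an inflammasome with PYCARD and caspase-1, IFI16 binds DNA in nucleus and cytosol, and MNDA is known as a nuclear protein of the myelomonocytic lineage. Loss of DNA methylation is known to raise interferon signaling in leukemia cells, and retinoids drive myeloid differentiation.

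Between 8042435 and 10683593 reads were counted per library, so 3 reads, taken here as the limit of detection, equal 2.50 to 3.71 normalized reads. A normalized read count is the read count divided by the size factor of its library. Mitochondrial transcripts held 36.3% to 42.5% of the reads, with every DAC and DAC + ATRA library below every untreated one. The effect of this on the member values was not tested. The myelomonocytic marker list was present in untreated cells, with 8 of 12 markers at a mean of at least 10 and MPO at 52120, and all 4 erythroid markers were at 0 in every library.

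Reads were spread unevenly over the rows of each gene. Among the rows matched to GENCODE 44 that have no base of their own, that is, none outside the other listed transcripts, ENST00000514542 of TMEM173 alone held reads. How reads on several transcripts were counted is not given in the sources used here, so a row at 0 does not show that its transcript was absent. Of the 47 rows, 35 held no read in any library. MB21D1 was measured by ENST00000370315, with 99.6% of the gene's 4727 reads, and MNDA by ENST00000368141, with 99.8% of 3257 reads. IFI16 rested on ENST00000447473 alone, with 183 reads. TMEM173 had 49781 reads in 4 of its 15 rows. None of those matched to GENCODE 44 is annotated as protein-coding, and the type of ENST00000510817, which is not matched, is not known. AIM2 had 0 reads in all 5 rows, and PYHIN1 had 11 reads in 2 of 7 rows. Measured here therefore means 4 of the 6 genes, and a value stands for the row named with it.

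MB21D1 showed no change past the threshold in any of the 6 comparisons. ENST00000370315 lies on the minus strand of chromosome 6 of hg38 from 73423711 to 73452297, with 5 exons, and 1791 of its 3201 bases belong to no other listed transcript. Its normalized read count was 321, 382 and 382 in untreated cells, 322, 363 and 389 with DAC, 325, 356 and 465 with ATRA, and 398, 405 and 519 with DAC + ATRA. The 3 single-agent and untreated groups overlapped, whereas each DAC + ATRA library lay above each untreated and each DAC library. The log2 fold change on the log2(normalized read count + 1) scale was -0.02 with DAC (95% interval -0.31 to 0.28), 0.06 with ATRA (-0.23 to 0.36) and 0.28 with DAC + ATRA (-0.02 to 0.57). Adjusted p (limma, Benjamini-Hochberg) was 0.939, 0.838 and 0.103, respectively. A change by 1 on the log2 scale lies outside all 3 intervals. The 0.28 with DAC + ATRA was 0.13 under TMM scaling and 0.15 without DAC + ATRA library 12, and the median of all tested protein-coding transcripts was 0.20.

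TMEM173 rose wherever ATRA was given. ENST00000507297, annotated as a transcript with a retained intron, rose with ATRA and with DAC + ATRA and did not differ detectably between DAC and untreated cells. It lies on the minus strand of chromosome 5 from 139475534 to 139482698 with 6 exons. The only bases it shares with no other listed transcript are 595 bases from 139478509 to 139479103, which are intronic in the protein-coding transcript ENST00000330794. That transcript, which encodes STING, was at 0 reads in every library and has 1 base of its own. Of the 15 TMEM173 rows, 6 carry another version in GENCODE 44 or are absent from it, so the exact bases counted are not settled. The abundance of the spliced STING mRNA was therefore not measured directly.

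**Figure D1:**
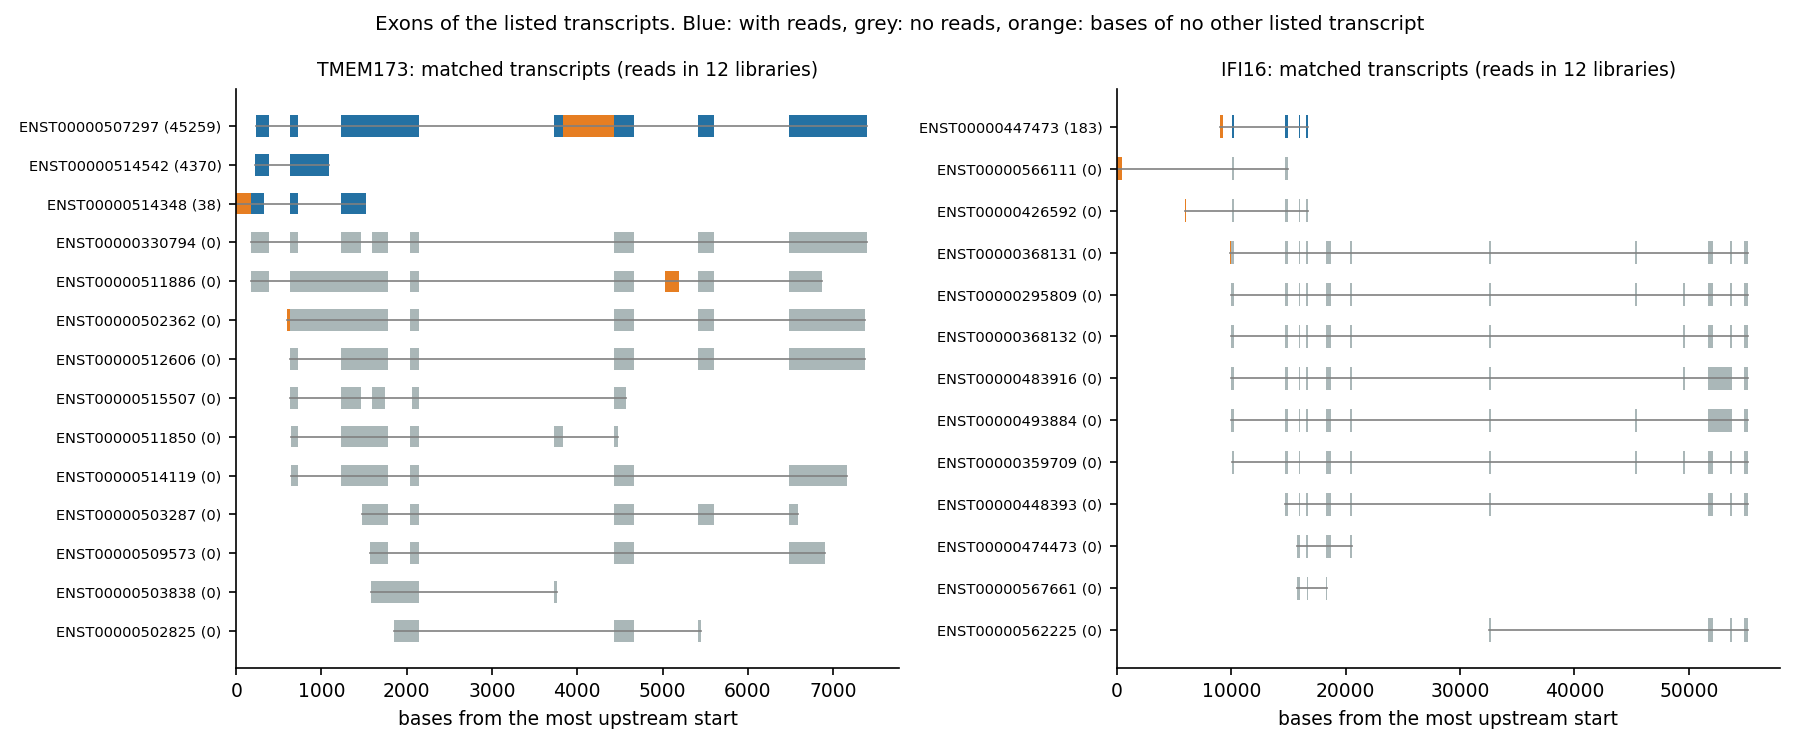
Exons of the listed TMEM173 and IFI16 transcripts that match GENCODE 44, by distance in bases from the most upstream start, with the reads over all 12 libraries in parentheses. Blue rows hold reads and grey rows hold none, and orange marks bases that no other listed transcript covers. The 45259 reads of ENST00000507297 and the 183 reads of IFI16 ENST00000447473 belong to rows with such a stretch, of 595 and 231 bases.

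ENST00000507297 had normalized read counts of 1721, 1763 and 1948 in untreated cells. With DAC they were 1570, 1774 and 2272, and the groups overlapped. With ATRA they were 5208, 5219 and 5655, and with DAC + ATRA 5528, 5758 and 5862, all above every library without ATRA. Against untreated cells the log2 fold change was 0.03 with DAC (SE 0.11, adjusted p = 0.825), 1.57 with ATRA (SE 0.11, adjusted p = 2.78e-11) and 1.66 with DAC + ATRA (SE 0.11, adjusted p = 1.42e-12), from limma over all 19373 transcripts tested. The means of ATRA and DAC + ATRA stood 2.96-fold and 3.16-fold above untreated. DAC + ATRA exceeded DAC by 1.63 (adjusted p = 2.23e-11), while its difference from ATRA was 0.09 (95% interval -0.13 to 0.31, adjusted p = 0.525).

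The second TMEM173 row, ENST00000514542, rose with each treatment. It is annotated without a defined coding sequence, spans 139481846 to 139482720 at the 5' end of the gene, and has no base of its own in GENCODE 44. Its normalized read count was 63.7, 66.2 and 68.3 in untreated cells, 103, 131 and 148 with DAC, 485, 540 and 587 with ATRA, and 674, 706 and 749 with DAC + ATRA. None of these groups overlapped with another. The log2 fold change was 0.92 with DAC (SE 0.14, adjusted p = 3.82e-06), 3.00 with ATRA (SE 0.14, adjusted p = 7.12e-15) and 3.40 with DAC + ATRA (SE 0.14, adjusted p = 7.19e-17). DAC + ATRA exceeded DAC by 2.48 (adjusted p = 6.47e-13), and its difference from ATRA of 0.40 missed the threshold (adjusted p = 0.0195, limma) but passed it with DESeq2 (adjusted p = 0.00742).

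The 2 rows did not move in proportion. ENST00000514542 made up 3.39% to 3.70% of the reads of both rows in untreated cells, 6.12% to 6.90% with DAC, 8.51% to 10.1% with ATRA and 10.3% to 11.9% with DAC + ATRA. These shares did not overlap between any groups (exact permutation test, two-sided, p = 0.1 in each of 5 comparisons, the smallest p that 3 libraries against 3 allow). Another row, ENST00000510817, which GENCODE 44 does not list, was low. It held 1 to 4 reads per untreated library, 2 to 9 with DAC, 7 to 14 with ATRA and 12 to 33 with DAC + ATRA, and it rose with DAC + ATRA by a log2 fold change of 3.14 (SE 0.49, adjusted p = 7.50e-06, limma). With DAC its log2 fold change of 0.82 (adjusted p = 0.181) did not pass, nor with ATRA the 1.84 (adjusted p = 0.0138).

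**Figure D2:**
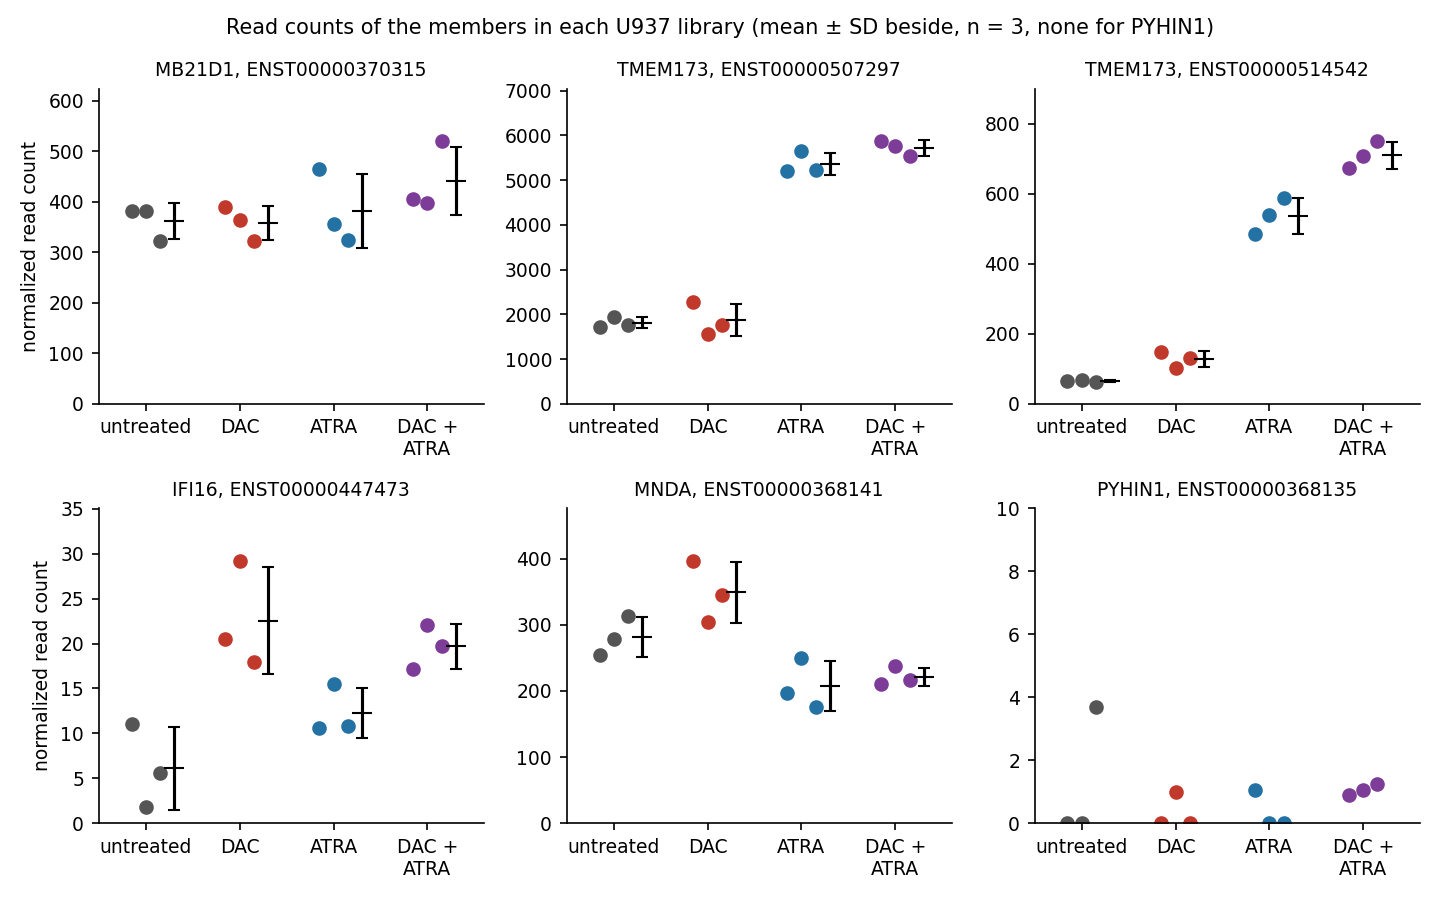
Normalized read count (y axis, starting at 0, a scale per panel) of the members' main rows in each of the 12 U937 libraries, by treatment, with mean ± SD (n = 3) in black except for PYHIN1. ENST00000507297 of TMEM173 lies between 5208 and 5862 in the 6 libraries with ATRA and between 1570 and 2272 in the 6 without it, and MB21D1 overlaps between the single-agent groups.

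AIM2, IFI16, MNDA and PYHIN1 form a cluster on the long arm of chromosome 1. RefSeq's promoter table for GRCh38.p14 holds 5 starts for them, and MB21D1 and TMEM173 were not among its entries. The 250 bases before the starts of the HIN-200 genes with any read are shown, with both IFI16 starts, since the row that holds the IFI16 reads begins close to the upstream one and the rows of the main start have few or no bases of their own. Capitals mark CG dinucleotides and matches, on either strand, to the searched motifs, which were GAAA, 2 bases of any kind and GAAA (the core of an interferon-stimulated response element), TTCNNNGAA (the core of a STAT-binding GAS element), AGGTCA (a retinoid receptor half-site) and GAGGAA (a PU.1 core).
MNDA, chr1:158831101-158831350, plus strand: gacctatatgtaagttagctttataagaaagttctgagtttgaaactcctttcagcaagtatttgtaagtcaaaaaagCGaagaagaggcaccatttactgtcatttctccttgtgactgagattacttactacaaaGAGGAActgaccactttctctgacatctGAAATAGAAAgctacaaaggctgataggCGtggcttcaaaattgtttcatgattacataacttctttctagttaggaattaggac
IFI16 upstream start, chr1:159008741-159008990, plus strand: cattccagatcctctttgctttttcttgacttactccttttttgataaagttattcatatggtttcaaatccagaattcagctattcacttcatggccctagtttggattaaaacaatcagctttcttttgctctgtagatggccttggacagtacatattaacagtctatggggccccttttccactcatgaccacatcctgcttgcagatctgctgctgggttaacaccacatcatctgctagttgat
IFI16 main start, chr1:159009657-159009906, plus strand: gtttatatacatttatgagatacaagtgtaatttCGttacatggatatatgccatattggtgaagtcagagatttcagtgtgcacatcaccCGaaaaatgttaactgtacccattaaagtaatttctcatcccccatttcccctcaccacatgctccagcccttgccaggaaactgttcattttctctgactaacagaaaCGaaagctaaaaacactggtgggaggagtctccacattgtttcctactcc
PYHIN1, chr1:158931302-158931551, plus strand: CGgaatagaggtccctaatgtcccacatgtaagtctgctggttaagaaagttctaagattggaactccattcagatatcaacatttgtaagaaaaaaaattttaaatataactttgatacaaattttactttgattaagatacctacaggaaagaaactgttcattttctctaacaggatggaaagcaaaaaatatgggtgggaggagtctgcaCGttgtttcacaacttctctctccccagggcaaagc

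The MNDA promoter holds 1 match to the interferon element, from -85 to -76, and 1 to the PU.1 core, from -113 to -108. The AIM2 promoter, on the minus strand from 159076767 to 159077016, also holds 1 interferon element match, from -190 to -181. No other match to the 4 motifs was found in these 5 windows, and of all 35116 promoters of this length 3.02% hold the interferon core, 6.57% the GAS core, 12.1% the half-site and 23.6% the PU.1 core. All 5 windows are poor in CG, with 2 in MNDA, PYHIN1 and AIM2, 3 at the main IFI16 start and 0 at the upstream one, against a median of 11 over all promoters. PYHIN1 and the main IFI16 start share a run of 19 bases, gaaactgttcattttctct, which begins at -97 and -81, and the longest run of any other pair has 12 bases. The motif matches overlap no other match, and they describe the sequence only.

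The IFI16 row with reads rose with DAC and with DAC + ATRA at a low level. ENST00000447473 runs on the plus strand of chromosome 1 from 159008995 to 159016692 with 5 exons, and its own bases are the 231 of its first exon, from 159008995 to 159009225. The 10 IFI16 rows that GENCODE 44 places at the main start or further downstream have at most 20 bases of their own, so their 0 reads do not measure the use of that start. The 2 rows that start further upstream, with 80 and 428 bases of their own, also had no read. The normalized read count of ENST00000447473 was 1.82, 5.54 and 11 in untreated cells, 17.9, 20.5 and 29.2 with DAC, 10.6, 10.8 and 15.5 with ATRA, and 17.2, 19.8 and 22.1 with DAC + ATRA. Every DAC and DAC + ATRA library lay above every untreated library, and the ATRA group overlapped with the untreated group. The reads behind these values were 2 to 12 per untreated library and 10 to 30 per treated library, so the fold change is imprecise. The row entered the fit through its treated libraries, since its untreated values were mostly below 10, so the filter favored a rise.

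The log2 fold change of IFI16 was 1.93 with DAC (SE 0.40, 95% interval 1.09 to 2.77, adjusted p = 0.00042) and 1.77 with DAC + ATRA (SE 0.40, 0.93 to 2.60, adjusted p = 0.000822). With ATRA it was 1.11 (SE 0.40, 0.28 to 1.95) and missed the threshold (adjusted p = 0.070). It passed without untreated library 1, at 1.61, but fell to 0.56 without untreated library 2 (adjusted p = 0.384, limma). The means with DAC and DAC + ATRA were 3.68-fold and 3.21-fold those of untreated cells. DAC + ATRA differed from DAC by -0.17 (95% interval -1.0 to 0.67) and from ATRA by 0.65 (-0.19 to 1.49), neither past the threshold (adjusted p = 0.840 and 0.200, limma).

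MNDA passed the threshold in 1 comparison, where DAC + ATRA stood below DAC. ENST00000368141 lies on the plus strand of chromosome 1 from 158831351 to 158849502 with 7 exons, and 646 of its 1716 bases are its own. The normalized read count was 254, 279 and 313 in untreated cells, 304, 346 and 397 with DAC, 176, 196 and 249 with ATRA, and 211, 216 and 237 with DAC + ATRA. The libraries with ATRA all lay below those without it, and DAC overlapped with untreated. The log2 fold change was 0.30 with DAC (SE 0.14, adjusted p = 0.0812), -0.45 with ATRA (SE 0.14, adjusted p = 0.0365) and -0.34 with DAC + ATRA (SE 0.14, adjusted p = 0.0441).

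MNDA was lower with DAC + ATRA than with DAC by a log2 fold change of -0.65 (SE 0.14, 95% interval -0.94 to -0.35, adjusted p = 0.00238). It missed the threshold without DAC library 4 (adjusted p = 0.0226) and without DAC + ATRA library 10 (0.0166) or 12 (0.0125). The difference between DAC + ATRA and untreated cells passed with edgeR and TMM (-0.49, adjusted p = 0.00284) and with DESeq2 (-0.49, adjusted p = 0.00196), but not with edgeR and DESeq2 size factors (-0.35, adjusted p = 0.0385). The deposited scaling places the median of all tested protein-coding transcripts at 0.22 with DAC and 0.20 with DAC + ATRA, against 0.02 and 0.05 under TMM scaling. The MNDA value of 0.30 with DAC is to be read against that median, and it was 0.10 under TMM scaling. The difference between DAC + ATRA and ATRA of 0.11 (95% interval -0.19 to 0.41) changed sign under TMM.

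AIM2 was not detectable at this depth and with this counting. PYHIN1 exceeded the limit of 3 reads in a single untreated library, with 4 reads, and stayed below it in the others. ENST00000368135 of PYHIN1 had 9 reads in all, at most 4 in a library, and ENST00000485134 had 2. The PYHIN1 rows have 1734 bases of their own, more than those of MNDA. The 4 AIM2 rows that match GENCODE 44 have 614 such bases and lie on the minus strand within 159061599 to 159187843, and 0 reads allow up to 3 reads per library. Reads of ENST00000368135 were found in 1 of 3 untreated, 1 of 3 DAC, 1 of 3 ATRA and 3 of 3 DAC + ATRA libraries, with 1 read in each of the last.

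**Figure D3:**
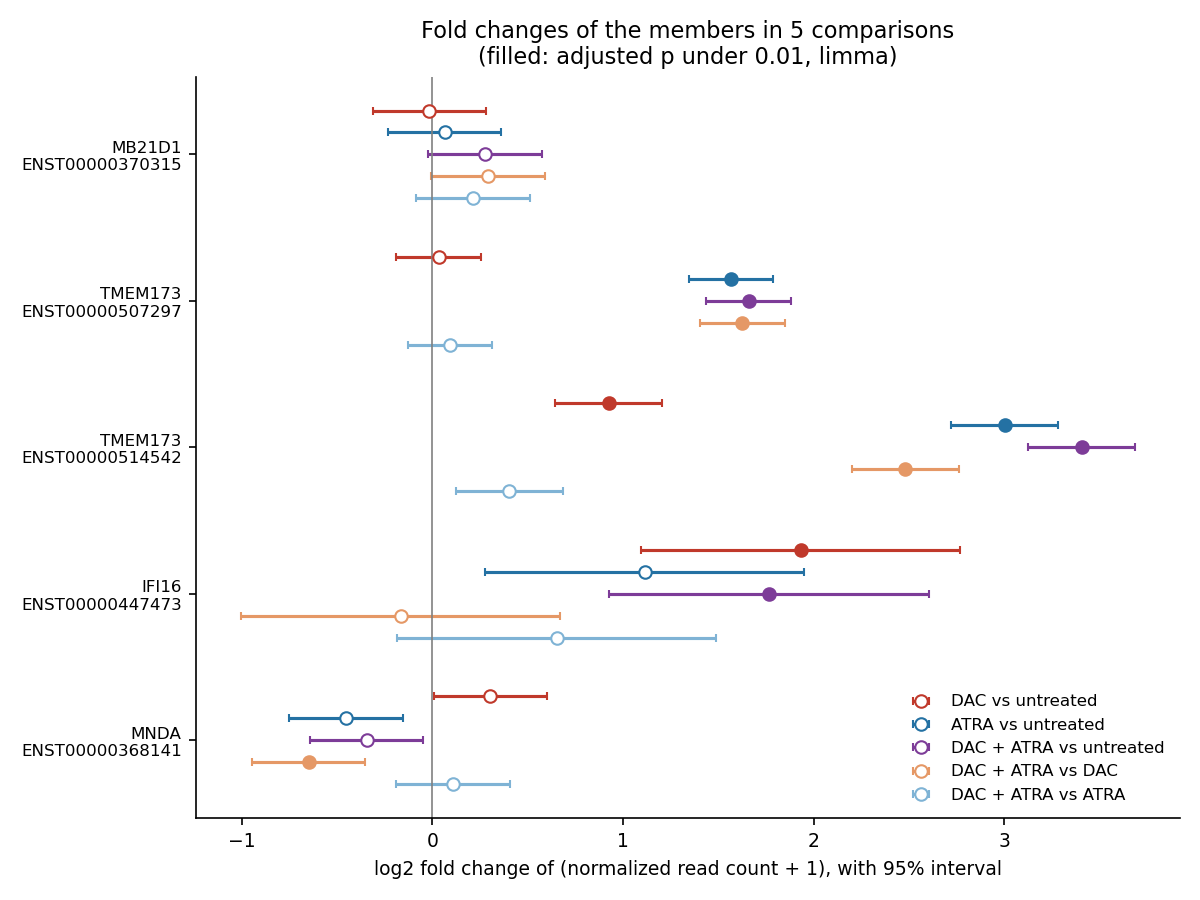
Log2 fold change (x axis, on the log2(normalized read count + 1) scale) with its 95% interval for the members' rows in 5 comparisons, from the limma fit over 12 libraries. Filled points have an adjusted p under 0.01. Both TMEM173 rows stand at 1.57 or above with ATRA and with DAC + ATRA, the IFI16 intervals lie above 0 against untreated cells, although ATRA missed the threshold, and all 5 MB21D1 intervals reach 0.

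Counted by gene, with ENST00000507297 for TMEM173, 1 of 4 measured members was upregulated with DAC (IFI16), 1 with ATRA (TMEM173) and 2 with DAC + ATRA (both). Over all tested protein-coding transcripts the upregulated share was 30.6%, 6.47% and 32.6%, and over all tested transcripts, the fit that holds TMEM173, 22.2%, 5.11% and 25.5%. Against DAC, DAC + ATRA raised TMEM173 and lowered MNDA, where 11.3% of protein-coding and 8.77% of all transcripts passed in either direction. Against ATRA, 0 of 4 passed with limma, edgeR or DESeq2, and 0 had an unadjusted p under 0.05, against 34.8% and 29.4% of transcripts past the threshold. The DAC × ATRA interaction, which is 0 where the log2 effects of the single agents add up, passed for 0 of 4 with each of the 3 tools (1 had an unadjusted p under 0.05 with limma, IFI16 at -1.28, SE 0.57), against 2.46% and 1.51%. These comparisons share libraries and are not independent.

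Levels of the main rows were compared per 1 kb of each row's own bases. In untreated cells the mean was 3043 ± 203 (SD, n = 3) for TMEM173 ENST00000507297, 436 ± 46.2 for MNDA, 202 ± 19.6 for MB21D1 and 26.5 ± 20.1 for IFI16, and no neighbours in this order overlapped. The order was the same per 1 kb of whole transcript length, at 566, 164, 113 and 6.45. With ATRA and DAC + ATRA, TMEM173 reached 9010 ± 428 and 9607 ± 288. The own bases are an intronic stretch for TMEM173 and an alternative first exon for IFI16, and which bases were counted is not settled, so these values are levels of rows and not of genes.

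Genes of the lists below were each read from 1 protein-coding row, that with the highest mean. Their values stand for that row and not for the whole gene. Of 40 genes of cGAS-STING signaling and its regulators, 22 had a tested protein-coding row. DAC raised 9 and lowered 4, ATRA raised 4 and lowered 0, and the combination raised 9 and lowered 6. Over all tested protein-coding transcripts 8.7%, 2.67% and 14.2% fell, beside the rising shares above. The median log2 fold change was 0.25, 0.19 and 0.21, against 0.22, 0.00 and 0.20 over all tested protein-coding transcripts. TBK1, the kinase that STING activates, rose from 672 ± 36.6 to 954 ± 52.0 with DAC and 1238 ± 69.4 with DAC + ATRA (SD, n = 3). Its log2 fold changes were 0.51 (SE 0.10, adjusted p = 0.00018) and 0.88 (SE 0.10, adjusted p = 1.20e-07), while 0.19 with ATRA did not pass (adjusted p = 0.213). IRF3, IRF7 and the exonuclease TREX1 had no read in their protein-coding rows, so the transcription factor step was not measured.

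SAMHD1, a dNTP hydrolase that limits DNA synthesis and interferon signaling, rose with each treatment. Its normalized read count was 188 ± 22.1 in untreated cells, 418 ± 31.8 in DAC-treated cells and 438 ± 9.01 in ATRA-treated cells, and it reached 1313 ± 25.7 with the combination. The log2 fold changes were 1.15, 1.22 and 2.80 (adjusted p = 1.97e-08, 4.17e-08 and 1.09e-14, limma), and DAC + ATRA also exceeded each single agent. The lysosomal nuclease DNASE2 rose with DAC (1.37) and DAC + ATRA (1.52) and stood at 0.11 with ATRA (adjusted p = 0.579). RHBDF2 (iRhom2), which acts in STING trafficking, rose from 3.07 ± 1.93 to 27.0 ± 8.76 with DAC + ATRA (2.88).

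RELA, RNASEH2B and TMEM203 were the members of this list that fell most with DAC + ATRA. The row of RELA, the NF-κB subunit, was low and dropped from 48.6 ± 13.6 to 13.9 ± 2.99 (log2 fold change -1.72, adjusted p = 4.02e-05). RNASEH2B, a subunit of ribonuclease H2, went from 130 ± 21.3 to 53.7 ± 13.5 (-1.27, adjusted p = 2.64e-05), and the STING regulator TMEM203 from 1736 ± 84.3 to 923 ± 44.8 (-0.91, adjusted p = 4.05e-07). Each also fell with DAC (-1.15, -0.92 and -0.58), and none passed with ATRA.

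The inflammasome list had 4 of 20 genes tested, of which 3, 1 and 3 rose under DAC, ATRA and the combination, beside 30.6%, 6.47% and 32.6% of all tested protein-coding transcripts. With at least 10 normalized reads required in every library, 1 passed with DAC. Low rows can enter the test through the groups where they are high, so these counts may follow in part from the filter. IL1B, the cytokine that caspase-1 matures, rose with DAC (2.33), ATRA (1.96) and DAC + ATRA (3.23). Its normalized read count was 62.4 ± 8.09 in untreated cells, 317 ± 10.9, 249 ± 54.9 and 593 ± 34.4 (SD, n = 3). IL1A (3.67 and 4.99) and the sensor NLRP1 (3.19 and 2.99) rose with DAC and DAC + ATRA. CASP1 went from 71.6 ± 22.2 to 116 ± 22.9 with DAC + ATRA, a log2 fold change of 0.72 that missed the threshold (adjusted p = 0.0102). GSDMD and IL18 had 0 reads in their protein-coding rows, and the adaptor PYCARD had a mean of at most 2.08, so AIM2 and its adaptor were both at or under the limit of detection in most libraries.

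Of 20 other reported DNA sensors, 10 were tested. With DAC 1 rose and 3 fell, and with DAC + ATRA 0 rose and 3 fell. Over all tested protein-coding transcripts 30.6% rose and 8.7% fell with DAC, 32.6% and 14.2% with DAC + ATRA, and 6.47% and 2.67% with ATRA. With ATRA 0 of 10 passed with limma, edgeR or DESeq2, and 0, 2 and 1 had an unadjusted p under 0.05. HMGB1 (-1.02), PRKDC (-0.85) and MRE11A (-0.67) fell with DAC + ATRA and with DAC, and the highest 3 with DAC + ATRA were XRCC6 (0.72), LRRFIP1 (0.36) and UNC93B1 (0.34), none past the threshold. ZBP1, a sensor of left-handed nucleic acid, had at most 1 read per library.

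Of 11 interferon and cytokine genes that lie downstream, 4 were tested, and all 4 rose with DAC and with DAC + ATRA at low levels, where 30.6% and 32.6% of all tested protein-coding transcripts rose. A row low in untreated cells, as CXCL10 was, could enter the test mainly through the groups where it is high. The counts of 4 of 4, and of 0 of 4 with ATRA, thus follow in part from the filter and allow no conclusion on the list. With at least 10 normalized reads required in every library, 0 passed in either comparison. CXCL10 was 4.59 ± 3.32 in untreated and 6.0 ± 2.13 in ATRA-treated cells, against 23.8 ± 6.27 with DAC and 45.4 ± 7.84 with DAC + ATRA. For the combination the log2 fold change was 3.29 for CXCL10, 3.07 for IFIT1, 2.35 for ISG15 and 2.34 for IFIT3. With ATRA 0 of 4 passed with limma, edgeR or DESeq2, and 0 had an unadjusted p under 0.05, beside a share of 6.47% that rose over all tested. With DESeq2, 2 of the 4 passed with DAC. IFNB1 itself stayed below the filter, at 0 to 1.85 normalized reads in untreated cells, 1.95 to 6.49 with DAC, 0 to 1.06 with ATRA and 2.47 to 6.32 with DAC + ATRA.

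**Figure D4:**
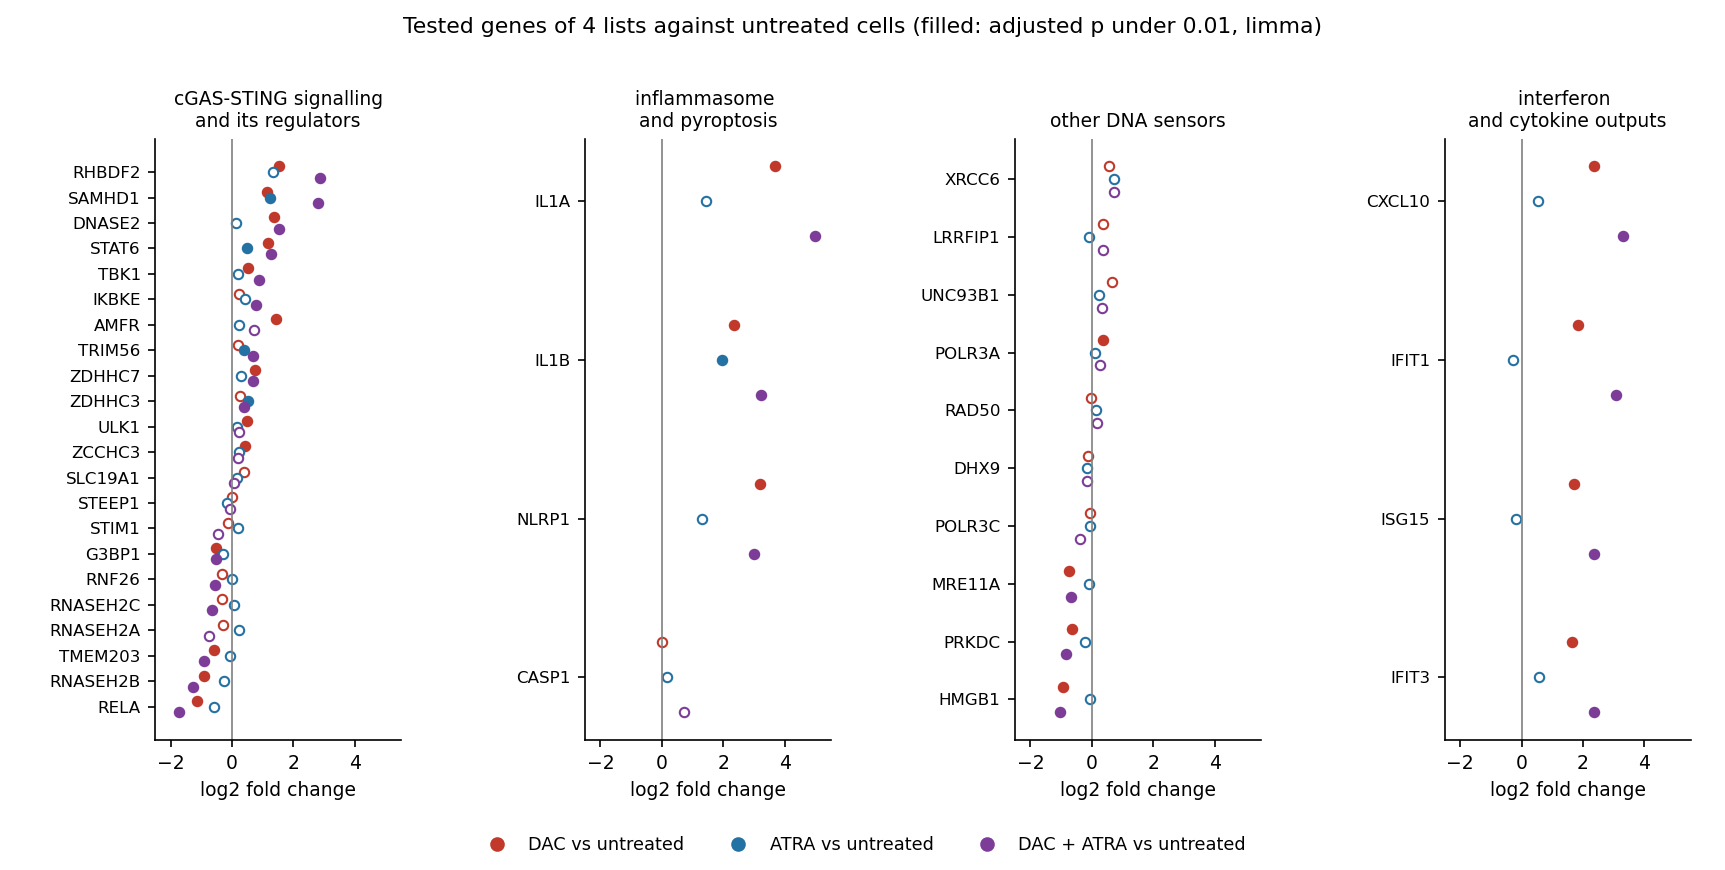
Log2 fold change (x axis, on the log2(normalized read count + 1) scale) of every tested gene of 4 lists with DAC (red), ATRA (blue) and DAC + ATRA (purple) against untreated cells. Filled points have an adjusted p under 0.01. The 4 interferon and cytokine genes lie between 1.65 and 3.29 with DAC and DAC + ATRA and between -0.28 and 0.58 with ATRA.

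Of 25 neighbours of the HIN-200 cluster on chromosome 1, 1 was tested. CD1D, a lipid-presenting molecule, rose from 10.1 ± 5.63 to 113 ± 22.6 with ATRA and 72.1 ± 8.79 with DAC + ATRA (log2 fold change 3.51 and 2.88, adjusted p = 2.86e-07 and 5.90e-07, limma), whereas MNDA in the cluster stood at -0.45 with ATRA.

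Single markers of other cell types rose with DAC, as IFI16 and the interferon genes did. Of the T cell markers 1 was tested and rose (CD2), of the B cell markers 1 of 2 tested (CD79A, whereas PAX5 had a log2 fold change of 0.01), and of the fibroblast markers both tested (COL1A1 and PDGFRB). Beside these counts, 30.6% of all tested protein-coding transcripts rose with DAC. The summed level of the 4 T cell markers was 2.76 to 10.2 in untreated cells, 293 to 387 with DAC, 4.55 to 7.39 with ATRA and 122 to 175 with DAC + ATRA, although CD3E and TRAC were at 0 throughout. The 4 fibroblast markers summed to 24.6 to 47.1, 459 to 491, 109 to 117 and 382 to 445, with DCN at 0, and the 4 B cell markers to 483 to 544, 865 to 929, 499 to 714 and 1639 to 1772. The 4 epithelial markers reached at most 20.9, with KRT18 and CDH1 at 0, and the 12 myelomonocytic markers summed to 60189 to 67541, 38258 to 55727, 40423 to 58467 and 35212 to 37954. MPO makes up most of this last sum. Of the 8 myelomonocytic markers tested, 4 rose and 1, MPO itself, fell under DAC, and the combination gave the same counts. Under ATRA alone 2 rose and 1 fell. Their median log2 fold change was 0.73 for DAC, 0.50 for the combination and 0.17 for ATRA. Over all tested protein-coding transcripts it was 0.22, 0.20 and 0.00, in the same order. DAC raised 30.6% and lowered 8.7% of those transcripts, the combination 32.6% and 14.2%, and ATRA 6.47% and 2.67%. The part of the marker shifts in the member results was not tested.

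The protein-coding transcripts whose log2 level followed a member most closely over the 12 libraries were named by Pearson's r, as a description over libraries that share 4 groups. For TMEM173 ENST00000507297 they were DHRS3 (r = 0.993), a retinoid-metabolizing reductase, TRIM22 (0.987) and DNMT3A (0.984), and for ENST00000514542 DNMT3A (0.994), HIC1 (0.991) and SLC2A5 (0.990). DHRS3 rose from a mean of 385 in untreated cells to 4664 with ATRA, and DNMT3A, a DNA methyltransferase, from 1025 to 2664. For IFI16 they were ZNF131 (0.930), ATF4 (0.912) and CCDC96 (0.910), for MNDA SLC48A1 (0.981) and PAPSS1 (0.940), and for MB21D1 MOB1A (0.903), CPD (0.902) and ATG12 (0.890). For the low row ENST00000510817 they were TMEM219 (0.923), KIAA0141 (0.919) and ARPC5 (0.917).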

How the data were processed

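The authors aligned the reads with STAR to hg38, counted them with htseq-count and used DESeq2, and the submitters' processing notes also name FastQC. Tool versions, annotation release, counting mode and strand setting are not given in the sources used here. The deposited values are a signal, read counts per transcript divided by 1 size factor per library, as tested on the values, 100% of which gave whole reads within 0.00012 of a read. The 12 libraries were fitted together with limma 3.58.1 (trend and robust, R 4.3.3) on log2(normalized read count + 1) for 9016 protein-coding transcripts with at least 10 normalized reads in at least 3 libraries, at an adjusted p under 0.01 (Benjamini-Hochberg). TMEM173 was taken from the same fit over all 19373 transcripts that passed this filter, because its protein-coding row had no read. Transcripts were matched by identifier to GENCODE 44 (174768 of 197782). A gene's value is its protein-coding row with the highest mean. A row low in untreated cells can enter the fit through the groups where it is high, so counts of risen low rows follow in part from the filter.

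The rule for named genes took all members with every row (here most rows with few or no reads are given only by count), the 3 highest and 3 lowest tested genes of each list with DAC + ATRA, some pathway genes set by name, and the 3 transcripts most correlated with each member row. The members and lists were chosen with earlier results of these data known. For single values, 3 libraries were compared with 3 by an exact permutation test. Tested on 7605 simulated transcripts for DAC against untreated cells, the fit found 73% of 100 changed 2-fold and 100% of 100 changed 4-fold, with 2 false calls. The changed transcripts all had an untreated mean of at least 10, and the simulation used a fixed dispersion and few changed transcripts. These rates therefore do not carry over to low rows such as IFI16, with an untreated mean of 6.13, or to the broad shift with DAC. Tables were computed with pandas 2.3.3. Protein sequences were not used here, and results that need withheld items are not reported here.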

Additional observations from a re-analysis of the deposited data

Results flagged for a closer look

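IL1B departed from additivity of the single agents on the log2 scale. Its DAC × ATRA interaction was -1.06 (SE 0.21, adjusted p = 0.00392, limma), so the DAC effect was smaller in the presence of ATRA. DAC raised IL1B by 2.33 without ATRA and by 1.27 on top of ATRA, in 3 of 3 libraries each.

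ENST00000514348, a TMEM173 row too low to be tested, lay above the untreated libraries with DAC + ATRA. It starts upstream of the other TMEM173 rows and has 177 bases of its own. It had 0 to 3 reads per untreated library, 0 reads with DAC, 1 to 7 with ATRA and 3 to 15 with DAC + ATRA, where its mean was 7.86 normalized reads. The difference was not tested with the fit across transcripts.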

How the results depend on the processing

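The rises of TMEM173 with ATRA and DAC + ATRA and of IFI16 with DAC and DAC + ATRA kept their direction and their side of the threshold under every alternative that could be run for them. TMEM173 ENST00000507297 ranged from 1.5 to 1.62 with ATRA and from 1.51 to 1.71 with DAC + ATRA (1.65 and 1.78 with all rows of the symbol summed), and IFI16 from 1.38 to 2.43 with DAC and from 1.21 to 2.26 with DAC + ATRA. IFI16 could not be given a value under the filter of at least 10 in every library. No paired analysis was possible because the columns carry the treatment and a running number but not the replicate numbers of the labels. Few reads limit IFI16 and PYHIN1, and most TMEM173 and IFI16 rows with few or no bases of their own held no read. Whether depth or counting lies behind the 0 reads of AIM2 was not tested.

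For MNDA, DAC + ATRA against untreated cells passed at a threshold of 0.05 (-0.34), with edgeR and TMM (-0.49), DESeq2 (-0.49), library size (-0.49) and TMM scaling (-0.49), and ATRA against untreated cells at a threshold of 0.05 (-0.45), with library size (-0.52) and without ATRA library 8 (-0.59). With a library left out, MNDA ranged from -0.59 to -0.34 with ATRA, from -0.74 to -0.55 for DAC + ATRA against DAC, and from -0.0024 to 0.25 for DAC + ATRA against ATRA, which was -0.014 with edgeR and TMM, -0.024 with DESeq2 and -0.0031 with TMM scaling. IFI16 with ATRA ranged from 0.56 to 1.61, and DAC + ATRA against DAC from -0.31 to 0.028. Values near 0 changed sign for MB21D1 with ATRA (-0.0052 with library size, -0.086 to 0.17 with a library left out) and DAC (-0.099 to 0.059), and for TMEM173 ENST00000507297 with DAC (-0.00080 with edgeR and TMM, -0.096 with library size, -0.015 with TMM scaling, -0.12 to 0.15 with a library left out) and in its interaction (-0.058 to 0.21). The cause was not tested.

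Members past the threshold with ATRA were 2 at a threshold of 0.05 and with library size (1 to 2 with a library left out), and for DAC + ATRA against DAC 1 to 2 with a library left out. Over all transcripts 6485, 1351, 8065, 1699 and 5688 passed in the 5 comparisons, since other transcripts entered the fit. With at least 10 in every library 2283 (DAC), 2749 (DAC + ATRA) and 1939 (against ATRA) passed, since low transcripts left it. A threshold of 0.05 gave 1317 (ATRA), 1618 (against DAC) and 456 (interaction), and the interaction gave 341 with DESeq2, 134 with at least 10 in every library and 148 to 483 with a library left out (483 without ATRA library 9). Of the lists, signaling genes with ATRA were 2 when only the groups compared were fitted (2 to 6 with a library left out), inflammasome genes with ATRA 2 at 0.05 or without the filter (1 to 2) and with DAC 1 with at least 10 in every library, and other sensors with DAC + ATRA 5 when only the groups compared were fitted. Interferon genes with DAC were 2 with DESeq2 and 0 with at least 10 in every library, as with DAC + ATRA, because these low rows then leave the fit. By all tested protein-coding transcripts, the upregulated share of those that passed with DAC was 77.9% with the deposited scaling and 59.2% with TMM scaling, and with DAC + ATRA 69.7% and 59.2%. With a symbol's rows summed, coding or not (chosen after seeing the data), no member call of the 4 genes changed.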
